A study of Mus musculus with 9 samples.

Results

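The cytosolic ribosomal protein genes are the nuclear genes whose products, with ribosomal RNA, build the large (Rpl) and small (Rps) subunits of the ribosome. Members were taken by symbol, as every row named Rpl or Rps with a number, with or without the ending a, x or l1, together with Rpsa, Rplp0, Rplp1 and Rplp2. This gave 78 of the 23955 rows of the count table, 48 of the large and 30 of the small subunit. All 78 had more than 3 counts in every sample and all 78 passed the low-count filter in each comparison, so none was lost.

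These genes are transcribed at high and similar levels in growing cells, because nearly every one of the proteins is needed in equal number in each ribosome. Their mRNAs begin with a run of pyrimidines, the TOP motif, through which mTORC1 and the RNA-binding protein Larp1 set their translation, and Myc drives the transcription of ribosome components. In the gut, loss of the tumor suppressor Apc releases Wnt signaling, and protein synthesis is known as a need of Apc-mutated adenoma cells. A few members have a related gene among the members, such as Rpl22l1 for Rpl22 and Rpl7l1 for Rpl7. Free Rpl5 and Rpl11 are known to hold back Mdm2, the ligase that degrades p53.

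RNA-seq was run on 9 organoid cultures, which are gel-grown epithelial cultures, from the gut of Apc min/+ mice. The 3 MIN samples came from Apc-mutated gut next to the tumors, the 3 Adenoma samples from adenomatous polyps, and the 3 Sulindac samples from adenomatous polyp organoids that received sulindac, a non-steroidal anti-inflammatory drug (NSAID). All groups carry the Apc min allele, all grew in one medium with Noggin, EGF, bFGF, R-spondin1 and B27, and no wild-type sample was analysed here. The sources used here give no dose or time of sulindac, no age or sex of the mice and no statement that replicates came from separate mice, so p-values measure the spread between these samples.

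Libraries held 30881206 to 48412477 counts. CPM below means a gene's counts per 1000000 counts of the library's total over the genes that passed the low-count filter, after TMM normalization, which corrects for library composition. Markers of epithelium (Epcam, Cdh1, Krt8, Krt18 and Vil1) summed to 2900 to 6307 CPM in the 9 samples, with 2900 to 3725 CPM in Adenoma. The 5 leukocyte markers, of which 0 to 2 were at 0, summed to 1.22 to 2.32 CPM in MIN, 8.13 to 16.5 CPM in Adenoma (the highest in replicate 3) and 3.09 to 4.10 CPM in Sulindac. The 6 mesenchymal markers, of which 3 or 4 were at 0, summed to 0.385 to 0.763 CPM, 1.97 to 2.37 CPM and 0.826 to 1.08 CPM. In each sample 2 to 4 of the leukocyte and 4 of the mesenchymal markers were at or under 3 counts. Only 1 leukocyte and 2 mesenchymal markers passed the low-count filter, so these sums rest on few genes. The 7 enterocyte markers summed to 2675 to 4478 CPM in MIN and to 3.94 to 5.91 CPM in the other 6 samples. Enterocyte mRNAs were thus abundant in MIN and near 0 in adenoma organoids, whether or not sulindac was given. The 5 crypt and cycling markers summed to 1880 to 3144 CPM in MIN and 650 to 1173 CPM in the other 6 samples. They did not move together. In adenoma against MIN, 1 was upregulated and 2 downregulated at an FDR of 1%, with log2 fold changes from -13.24 to 1.37. In bulk RNA, fewer cells of a type and less RNA per cell cannot be told apart, and the part of these shifts in the results for the ribosomal protein genes was not tested.

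Start sites were looked up in RefSeq on GRCm38.p6, where 58 of the 78 genes had a window, 50 of them a single window. In the sequences shown, 30 bases before the annotated start and 20 after it are given 5′ to 3′, and capitals mark a TOP-like run, defined as a C followed by at least 5 more C or T whose first base lies from 15 bases before to 20 after the start. The set shows both members that fell in adenoma and in sulindac-treated organoids (Rpl22l1, Rpl7l1), 4 of those that rose with sulindac against MIN (Rpl27a, Rpl13a, Rpl7a, Rps15), the member with the largest difference between sulindac-treated and untreated adenoma (Rps12) and the member with the highest mean CPM (Rplp0).
Rpl22l1, chr3:28805478-28805527, plus strand: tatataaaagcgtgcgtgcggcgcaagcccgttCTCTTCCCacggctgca
Rpl7l1, chr17:46782637-46782686, minus strand: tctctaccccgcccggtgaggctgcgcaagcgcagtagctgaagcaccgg
Rpl27a, chr7:109519165-109519214, plus strand: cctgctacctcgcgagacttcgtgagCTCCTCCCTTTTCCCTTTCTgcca
Rpl13a, chr7:45128726-45128775, minus strand: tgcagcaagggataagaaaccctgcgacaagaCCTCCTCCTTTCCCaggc
Rpl7a, chr2:26910777-26910826, plus strand: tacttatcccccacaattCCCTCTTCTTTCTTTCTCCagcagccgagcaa
Rps15, chr10:80292401-80292450, plus strand: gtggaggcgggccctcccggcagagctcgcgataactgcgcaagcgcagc
Rps12, chr10:23787190-23787239, minus strand: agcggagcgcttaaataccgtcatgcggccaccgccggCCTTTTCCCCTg
Rplp0, chr5:115559437-115559486, plus strand: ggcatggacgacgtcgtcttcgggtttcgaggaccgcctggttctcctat
The run was found for 37 of the 58 genes (63.8%) and for 8563 of the other 26967 genes in the same file (31.8%). Of the printed windows, that of Rpl27a holds the longest run, and those of Rpl7l1, Rps15 and Rplp0 hold none. The 37 genes with a run had a median log2 fold change of 0.23 in adenoma against MIN and 0.31 in sulindac against MIN, and the 21 genes without it 0.23 and 0.24, medians that are given without a test. In the whole 300-base windows, CCGGAAGT, a binding motif of ETS factors, stood on either strand for 11 of the 58 genes (19.0%) and for 4.28% of the others. CACGTG, the E-box that Myc can bind, stood on either strand for 6 of the 58 (10.3%) and for 8.09% of the others. The ETS letters are too short a pyrimidine stretch to count as a run, and a match describes the letters only.

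The members together took 8.44%, 9.02% and 9.64% of all counts in the MIN samples, 10.6%, 10.3% and 13.8% in the Adenoma samples and 10.7%, 11.6% and 10.6% in the Sulindac samples. The means were 9.03% ± 0.60 (SD, n = 3) in MIN, 11.6% ± 1.95 in Adenoma and 10.9% ± 0.56 in Sulindac. Every Adenoma and every Sulindac sample lay above every MIN sample on this scale, and Adenoma replicate 3 stood apart from all others. Without it the Adenoma mean was 10.5%. The large and small subunits moved alike, with Rpl genes at 5.34% ± 0.38, 7.01% ± 1.19 and 6.61% ± 0.30 of counts and Rps genes at 3.69% ± 0.22, 4.59% ± 0.76 and 4.34% ± 0.26 in MIN, Adenoma and Sulindac (SD, n = 3 each). Mitochondrial ribosomal protein genes, which build a separate ribosome, took 0.348% ± 0.013, 0.334% ± 0.036 and 0.301% ± 0.016.

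**Figure D1:**
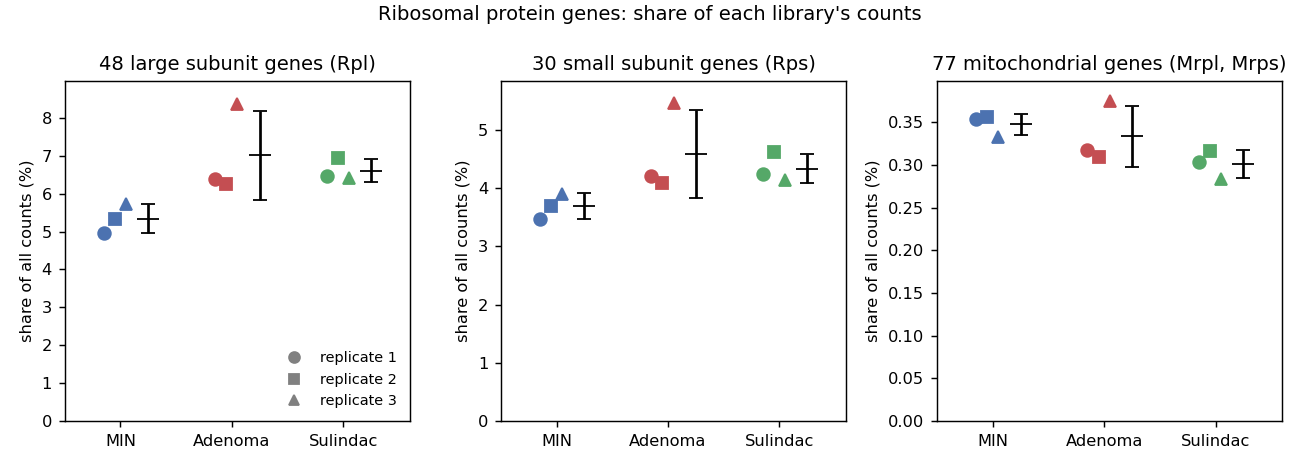
Share of each library's counts (vertical axes, percent, from 0) on the large subunit genes, the small subunit genes and, for contrast, the mitochondrial ribosomal protein genes. Points are samples by group and replicate, and bars give the mean and SD of 3. Adenoma replicate 3 is highest in all 3 panels, at 8.38%, 5.47% and 0.375%.

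After TMM scaling, the shift of the median member in untreated adenoma rested largely on Adenoma replicate 3. Against the mean of the MIN samples, the median member stood at a log2 ratio of 0.06 in Adenoma replicate 1, 0.04 in replicate 2 and 0.56 in replicate 3, where MIN itself ran from -0.12 to 0.14. The Sulindac samples stood at 0.24, 0.41 and 0.23, all above every MIN sample. Adenoma replicate 3 was the highest of its group for 76 of the 78 members, and for 41.4% of all genes. Within the other groups 1 library also led, namely MIN replicate 3 for 64 members and Sulindac replicate 2 for 74. The members therefore moved as a block from library to library. The median SD of a member on the log2 scale was 0.145 among MIN samples, 0.302 among Adenoma samples and 0.108 among Sulindac samples, against 0.157, 0.186 and 0.145 for 78 other genes at or above the first quartile of the members' levels.

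**Figure D2:**
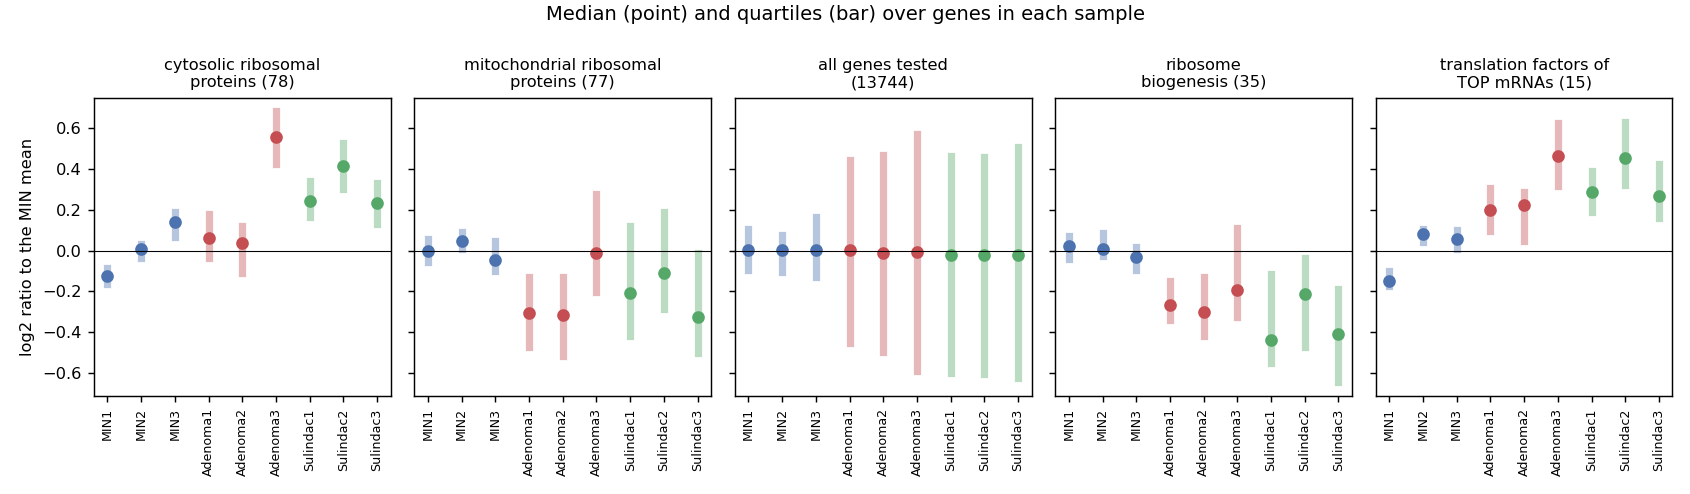
Log2 ratio of each sample to the MIN mean (vertical axis), as the median (point) and quartiles (bar) over the genes of each list, for the 9 samples in blue (MIN), red (Adenoma) and green (Sulindac). The cytosolic ribosomal protein genes are near the MIN level in Adenoma replicates 1 and 2, at 0.06 and 0.04, and above it in Adenoma replicate 3 and all Sulindac samples.

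Levels differed widely between members. Per 1000 bases of transcript, the median member lay at 1560 CPM in MIN, with quartiles at 1150 and 2050 CPM. The length used was the median over a gene's protein-coding transcripts in GENCODE M21, such as 495 bases for Rpl13a and 3706 for Rps20. It need not be the length of the mRNA present, so the order of members on this scale is uncertain. Rpl13a, at 4050 CPM per 1000 bases, and Rplp0, a protein of the stalk that receives translation factors, at 3990, were the highest. Rps27 (25.1), Rpl30 (30.9), Rpl26 (66.9), Rpl34 (101) and Rpl7l1 (104) were the lowest. Several of these share sequence with a near copy. Of the 50-base stretches of the members' transcripts in GENCODE M21, a median of 38.4% also occurred in another gene, with a range from 0 to 95.1%, and 71 of the 78 members shared over 10%. Rps27 shared 46.2%, all of it with Rps27rt, whose row held 597 to 1015 CPM against 4.14 to 31.5 CPM for Rps27. Counts of such members are uncertain, and those of Rps27 varied most between replicates.

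The first comparison, adenoma against MIN, asks how the tumor organoids differed from Apc-mutated epithelium outside the tumors. Of the 78 members, 1 was upregulated and 2 were downregulated at an FDR of 1%, which is 1.28% and 2.56% of them, while 18.5% of the 13744 genes tested were upregulated and 20.1% downregulated (edgeR's quasi-likelihood test, Benjamini-Hochberg adjustment over all genes). The upregulated member was Rpl7 and the downregulated ones were the paralogs Rpl22l1 and Rpl7l1. At an FDR of 5%, 5 were upregulated and 2 downregulated (6.41% and 2.56%), against 25.4% and 26.7% of all genes. In all, 68 of the 78 members had a positive log2 fold change, with a median of 0.23 and quartiles of 0.14 and 0.35, and the median over all genes was -0.01. The median standard error of a member was 0.18, close to the size of the median change. In 15 members every Adenoma sample was above every MIN sample and in 2 every one was below, or 19.2% and 2.56%, against 30.7% and 32.2% of all genes. Without Adenoma replicate 3 the median fell to 0.04, 47 members were positive, and the same 3 members passed.

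Rpl7, a large subunit protein, had levels of 1881, 1911 and 2098 CPM in the MIN samples, 2864, 2932 and 4160 CPM in the Adenoma samples and 2877, 3259 and 3115 CPM in the Sulindac samples. All samples from adenomas lay above all MIN samples. The log2 fold change against MIN was 0.76 ± 0.18 (SE, adjusted p = 0.00678, edgeR) in adenoma, or 1.69-fold, and 0.57 ± 0.11 without Adenoma replicate 3. Leaving out any of the MIN replicates ended the adenoma call. Of its 50-base stretches 49.3% also occur in other genes, so its count is uncertain.

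Rpl7l1, whose product is related to Rpl7, went the other way. Its levels were 146, 137 and 125 CPM in the MIN samples, 102, 98.4 and 98.5 CPM in the Adenoma samples and 86.1, 92.5 and 88.2 CPM in the Sulindac samples, with no overlap between any of the groups. In adenoma it fell by 0.45 ± 0.10 on the log2 scale (adjusted p = 0.005, edgeR). Only 7.48% of its stretches occur elsewhere. Its counts amounted to 7.75%, 7.19% and 5.97% of those of Rpl7 in MIN, 3.55%, 3.36% and 2.37% in Adenoma and 2.99%, 2.84% and 2.83% in Sulindac.

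Rpl22l1 encodes a protein that can take the place of Rpl22, an RNA-binding large subunit protein. Rpl22l1 had 189, 174 and 177 CPM in the MIN samples, 124, 112 and 143 CPM in the Adenoma samples and 110.3, 110.0 and 92.8 CPM in the Sulindac samples. It too did not overlap between groups, and fell by 0.50 ± 0.12 on the log2 scale in adenoma (adjusted p = 0.00651, edgeR). Rpl22 itself had 491, 539 and 665 CPM in the MIN samples, 632, 610 and 836 CPM in the Adenoma samples and 629, 722 and 654 CPM in the Sulindac samples, so its groups overlapped, with a log2 fold change of 0.30 ± 0.17 in adenoma (adjusted p = 0.178, edgeR). As a share of Rpl22 counts, Rpl22l1 went from 32.4% ± 5.92 in MIN to 18.4% ± 1.26 in Adenoma and 15.7% ± 1.70 in Sulindac (SD, n = 3 each). A two-sided exact permutation test of this ratio gave p = 0.1 for Adenoma or Sulindac against MIN, the smallest value that 3 against 3 samples allow, and 0.2 between Sulindac and Adenoma. Of the stretches of Rpl22l1, 58.9% occur in other genes, mostly in Gm15421, a row at 0.478 to 1.07 CPM. Library size alone as the scaling, and leaving out Adenoma replicate 1 or 2 or MIN replicate 1 or 2, ended the adenoma calls of both Rpl22l1 and Rpl7l1, and leaving out MIN replicate 3 ended that of Rpl22l1.

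**Figure D3:**
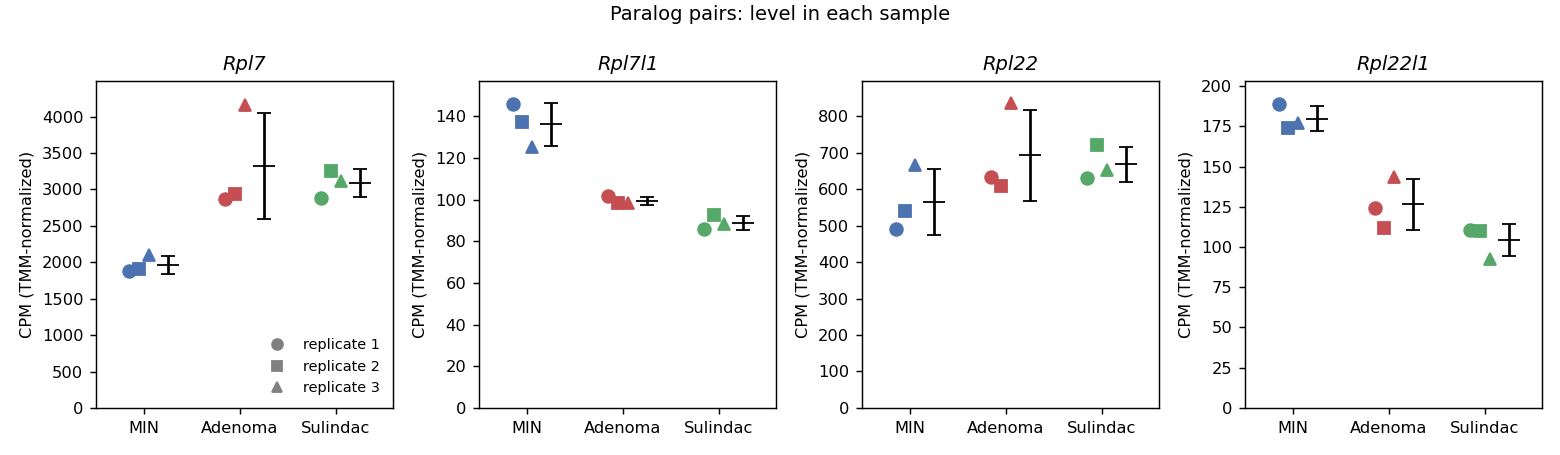
Level of Rpl7, Rpl7l1, Rpl22 and Rpl22l1 in CPM (vertical axes, from 0) in each sample, with the mean and SD of each group of 3. Rpl7l1 and Rpl22l1 are lower in every Adenoma and Sulindac sample than in any MIN sample, while Rpl7 is higher in every one and Rpl22 overlaps.

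The second comparison asks what sulindac changed in adenoma organoids. No member passed an FDR of 1% in either direction, where 8.32% of the 12962 genes tested were upregulated and 9.1% downregulated. At an unadjusted p under 0.05 in edgeR, 3 members were higher and 1 was lower, against 2685 and 3108 of the 12962 genes tested. DESeq2 at an FDR of 1% called 1 member higher, or 1.28%, against 13.7% of all genes. At an FDR of 5%, edgeR called 1 higher and 0 lower, against 15.7% and 18.3% of all genes. The median log2 fold change was 0.06, with a range from -0.48 to 0.53 and a median standard error of 0.16, against -0.01 for all genes, and it was -0.01 and -0.02 without Adenoma replicate 1 or 2. It turned to -0.10 when libraries were scaled by total counts alone, which moved the median of all genes by -0.17. In 3 members every Sulindac sample was above every Adenoma sample and in 3 below, or 3.85% each, against 22.9% and 26.0% of all genes. Without Adenoma replicate 3 the median was 0.24 and 9 members (11.5%, against 10.7% of all genes) passed as higher, listed after their values were seen (Rpl12, Rpl13, Rpl27a, Rpl34, Rpl7a, Rpl8, Rplp1, Rps10 and Rps12). In 62 of the 78 every Sulindac sample was then above both Adenoma samples, or 79.5%, against 31.0% of all genes. The sample left out was the highest of its group for 76 of the 78 members, and for 41.4% of all genes. Its choice by itself therefore raises the count of 62. The members also moved as a block, so they are not separate pieces of evidence.

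The largest difference was that of Rps12, a protein of the head of the small subunit, which is named here after its values were seen. The MIN samples had 1844, 1862 and 1987 CPM, the Adenoma samples 1579, 1266 and 1964 CPM and the Sulindac samples 2293, 2429 and 2167 CPM. Every Sulindac sample was above every other sample. Its log2 fold change against Adenoma was 0.53 ± 0.16 (adjusted p = 0.0333, edgeR), which did not pass, and 0.69 ± 0.11 (adjusted p = 0.00282, edgeR) without Adenoma replicate 3. As a share of the counts of all members MIN had 2.05% ± 0.12, Adenoma 1.47% ± 0.14 and Sulindac 2.01% ± 0.06 (SD, n = 3). Rpl3, a core protein beside the site of peptide bond formation, took its highest share in Adenoma, where Rps12 had its lowest, with 2.80% ± 0.14 of the members' counts in MIN, 3.14% ± 0.17 in Adenoma and 2.37% ± 0.07 in Sulindac. Its fold changes did not pass in any comparison.

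The third comparison sets sulindac-treated adenoma against MIN. Here 13 members were upregulated and 2 downregulated, which is 16.7% and 2.56%, against 23.0% and 26.8% of the 13551 genes tested. The median member changed by 0.28 on the log2 scale, or 1.21-fold, with quartiles of 0.20 and 0.38, and 74 of the 78 were positive, while the median of all genes was -0.03. In 52 members (66.7%) every Sulindac sample lay above every MIN sample and in 2 (2.56%) below, against 33.5% and 36.0% of all genes. Most members thus lay slightly above MIN, and how many passed depended on the threshold and the tool. At an FDR of 5%, 38 members (48.7%) were upregulated and 2 (2.56%) downregulated, against 29.5% and 33.3% of all genes, and DESeq2 at 1% called 31 (39.7%) against 25.3%, so the upregulated share of the members lay below that of all genes in edgeR at 1% and above it in these. Leaving out 1 sample gave between 3 and 32 upregulated members, the highest count (41.0% of members against 24.8% of all genes) without MIN replicate 3 and the lowest (3.85% against 17.8% to 18.7%) without MIN replicate 1 or 2. Without Sulindac replicate 1, 2 or 3 the counts were 4, 5 and 7 (5.13%, 6.41% and 8.97%), against 18.1%, 19.9% and 17.6% of all genes. When all 9 samples were fitted together 3 passed, or 3.85%, against 21.7% of all genes.

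Of the upregulated members 11 were of the large and 2 of the small subunit. These are 22.9% of the 48 and 6.67% of the 30, against 23.0% of all genes. The subunits did not differ in their median log2 fold change of 0.28. In 66.7% of each, every Sulindac sample lay above every MIN sample. Rpl34, a large subunit protein, rose most. Rpl34 had 57.1, 61.8 and 70.6 CPM in the MIN samples, 72.1, 73.7 and 104 CPM in the Adenoma samples and 107, 109 and 110 CPM in the Sulindac samples, with each group above the one before. Its log2 fold change against MIN was 0.78 ± 0.09 (adjusted p = 9.84e-05, edgeR), or 1.71-fold, and it passed under all 16 alternatives. The row Rpl34-ps1, a pseudogene that shares 11.0% of the stretches of Rpl34, held 592 to 1048 CPM and rose by 0.54 ± 0.09, and how reads were divided between the rows was not tested.

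Rpl7 rose by 0.65 ± 0.10 (adjusted p = 0.000476, edgeR) and also passed under all 16 alternatives. Rpl27a rose by 0.59 ± 0.13, where MIN had 903, 1095 and 1292 CPM, the Sulindac samples 1599, 1774 and 1578 CPM and the Adenoma samples 1114, 1083 and 1817 CPM. Rpl19 rose by 0.49 ± 0.10, from 1177, 1296 and 1261 CPM to 1690, 1928 and 1636 CPM. Rpl17, whose protein lines the exit of the peptide tunnel, rose by 0.49 ± 0.12, from 1183, 1282 and 1596 CPM to 1837, 1970 and 1898 CPM. For these genes the Sulindac samples did not overlap with MIN, while the Adenoma samples of Rpl27a and Rpl17 did. The adjusted p-values of 7 more (Rps15, Rps20, Rpl24, Rpl13a, Rpl41, Rpl7a and Rpl6) lay between 0.00218 and 0.00634 (edgeR). Their log2 fold changes were 0.42 to 0.49, and these 7 are named after their values were seen. Rpl7l1 fell by 0.62 ± 0.08 (adjusted p = 0.000238, edgeR) and Rpl22l1 by 0.79 ± 0.09 (adjusted p = 9.59e-05, edgeR), and both passed under all 16 alternatives. The comparisons share samples, so these values are not independent of those for adenoma.

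**Figure D4:**
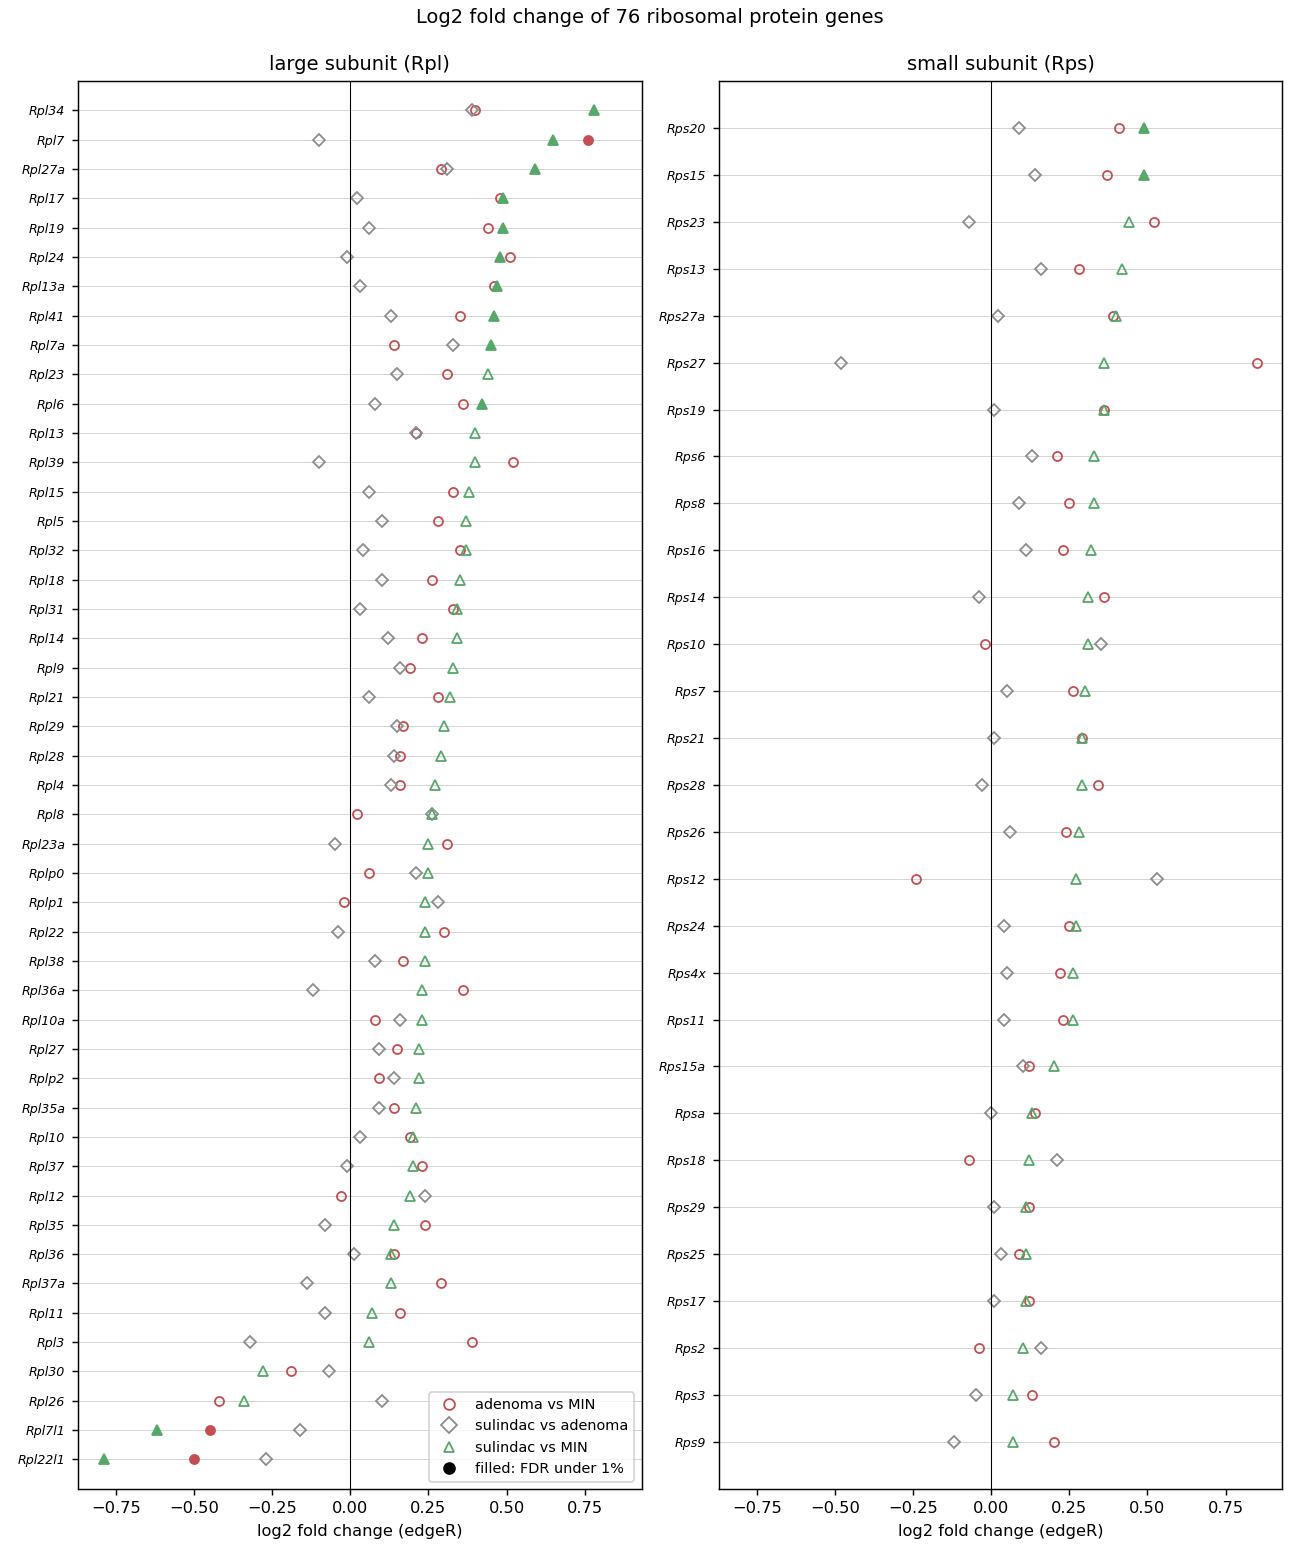
Log2 fold change (horizontal axis) of 76 of the 78 members in the 3 comparisons, sorted by sulindac against MIN, with filled symbols past an FDR of 1%. Most members lie between 0 and 0.5 in both comparisons with MIN, Rpl22l1 and Rpl7l1 are far to the left, and no symbol of sulindac against adenoma is filled.

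The members can also be read by their place in the ribosome. The 4 stalk genes (Rplp0, Rplp1, Rplp2 and Rpl12) had log2 fold changes of -0.03 to 0.09 in adenoma and 0.19 to 0.25 with sulindac, both against MIN, and none passed. Rplp0 had 3131, 3762 and 3328 CPM in the MIN samples, 3317, 3132 and 4195 CPM in the Adenoma samples and 4023, 4334 and 3864 CPM in the Sulindac samples. Rpl5 and Rpl11, which bind 5S RNA and Mdm2, were at 0.28 ± 0.18 and 0.16 ± 0.17 in adenoma and 0.37 ± 0.12 and 0.07 ± 0.09 with sulindac, and did not pass. Of 10 genes at the peptide tunnel and its rim, Rpl17 and Rpl19 passed with sulindac against MIN and none in adenoma. These 2 of 10 are a share below the 23.0% of all genes upregulated with sulindac, and in adenoma 18.5% of all genes were upregulated. The calls therefore do not set the tunnel genes apart from other genes. Rpl4 and Rpl39, which line the tunnel, were at 0.27 ± 0.11 and 0.40 ± 0.11 with sulindac against MIN, and Rpl10, a late-joining protein, at 0.20 ± 0.09.

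Small subunit genes had medians of 0.23 in adenoma and 0.28 with sulindac against MIN, the same as the large subunit to within 0.01. All 30 were positive with sulindac, and Rps15 and Rps20, both in the head of the subunit, were those that passed. They are 2 of the 14 genes listed for the head, a share below the 23.0% of all genes upregulated with sulindac against MIN. At the mRNA entry and exit, Rps2, Rps3, Rps14, Rps26 and Rps28 did not pass in any comparison. Rps6, the substrate of S6 kinase, had 2341, 2699 and 2904 CPM in the MIN samples, 2740, 2673 and 3761 CPM in the Adenoma samples and 3125, 3697 and 3183 CPM in the Sulindac samples. Its log2 fold changes against MIN were 0.21 ± 0.18 and 0.33 ± 0.12 (adjusted p = 0.0364 for the latter, edgeR). Rpsa, Rps19 and Rps27a, the last a fusion with ubiquitin, were at 0.13 ± 0.11, 0.36 ± 0.11 and 0.40 ± 0.12 with sulindac against MIN, and did not pass. Of the 15 genes mutated in Diamond-Blackfan anemia, an inherited failure of red cell production, none passed in either comparison with MIN, with medians of 0.24 and 0.28.

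Relatives that the naming rule leaves out went both ways. Fau, which encodes a small subunit protein fused to a ubiquitin-like protein, had 738, 816 and 939 CPM in the MIN samples, 1307, 1347 and 1986 CPM in the Adenoma samples and 1581, 1790 and 1515 CPM in the Sulindac samples. It rose by 0.90 ± 0.19 in adenoma (adjusted p = 0.00415, edgeR) and by 0.97 ± 0.12 with sulindac (adjusted p = 0.000126, edgeR), values above those of every member, though that difference was not tested. Rps27l, a paralog of Rps27 that is a known p53 target, was at 0.48 ± 0.17 in adenoma and rose by 0.44 ± 0.09 with sulindac (adjusted p = 0.00301, edgeR). Rps3a1, the table's spelling of Rps3a, was at 0.11 ± 0.17 and 0.18 ± 0.11 and did not pass. Rps4l was at 8.15, 2.39 and 2.23 CPM in MIN and at 0 to 0.116 CPM, or 0 to 4 counts, in all other samples, and unlike Fau it was called lower in both comparisons with MIN (adjusted p = 0.000241 in adenoma and 0.00027 with sulindac, edgeR). Rpl36al did not pass, and Rpl3l, Rpl10l and Rpl39l were at or under 3 counts throughout.

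Scaling by the members themselves, an alternative chosen after Adenoma replicate 3 was seen to stand apart, compares each member with its own family. On that scale Rpl7 was upregulated and Rpl22l1 downregulated in adenoma, at 0.52 ± 0.12 and -0.73 ± 0.19. With sulindac against MIN, Rpl34 and Rpl7 were upregulated, at 0.50 ± 0.11 and 0.36 ± 0.08, and Rpl22l1 and Rpl7l1 downregulated, at -1.08 ± 0.13 and -0.92 ± 0.14. No other member passed there, and none passed between sulindac-treated and untreated adenoma. Rpl7l1 in adenoma was at -0.66 ± 0.22 on that scale (adjusted p = 0.0324, edgeR) and missed the threshold.

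Genes that share the TOP motif or serve ribosome production moved in different directions. Of 15 translation factors and other TOP mRNAs, 1 was upregulated in adenoma and 6 with sulindac against MIN and none downregulated, with a median of 0.33 in both, where 18.5% and 23.0% of all genes were upregulated. Eef1g, an elongation factor subunit, rose by 0.62 ± 0.14 in adenoma and 0.76 ± 0.11 with sulindac. Eif3f, a subunit of initiation factor eIF3, had 320, 390 and 393 CPM in the MIN samples, 516, 502 and 721 CPM in the Adenoma samples and 790, 985 and 805 CPM in the Sulindac samples, and rose by 1.22 ± 0.12 with sulindac against MIN (adjusted p = 4.33e-05, edgeR).

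Of 35 ribosome biogenesis genes, 1 was upregulated and 4 downregulated in adenoma, with a median of -0.26, and 2 and 16 with sulindac against MIN, with a median of -0.36. These are 2.86% and 11.4% of the list in adenoma, below the 18.5% and 20.1% of all genes, and 5.71% and 45.7% with sulindac, against 23.0% and 26.8%. Dkc1 and Gar1, of the complex that converts uridine in ribosomal RNA to pseudouridine, fell by 1.02 ± 0.11 and 0.92 ± 0.11 with sulindac against MIN. Gar1 was the 1 biogenesis gene that fell with sulindac against adenoma, by 0.58 ± 0.12 (adjusted p = 0.00646, edgeR). Heatr1 and Imp4, of the small subunit processome, fell by 0.76 ± 0.15 and 0.81 ± 0.13 in adenoma, while Imp3, which works with Imp4, rose by 0.58 ± 0.14 in adenoma and by 0.76 ± 0.10 with sulindac. Wdr74, a large subunit assembly factor, rose by 0.33 ± 0.08 with sulindac. The cytosolic ribosomal protein genes and the genes that assemble ribosomes had medians of opposite sign against MIN on the TMM scale.

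Among 15 genes of mTOR and Myc control, 3 were downregulated in adenoma and none upregulated, and 2 passed in each direction with sulindac against MIN. The 3 of 15 downregulated in adenoma are near the 20.1% of all genes, and 13.3% each way with sulindac is below 23.0% and 26.8%. Eif4ebp1, the translation repressor that mTORC1 inactivates, had 115, 123 and 192 CPM in the MIN samples, 73.0, 75.8 and 80.7 CPM in the Adenoma samples and 156, 180.3 and 185 CPM in the Sulindac samples. It fell by 0.90 ± 0.19 in adenoma and rose by 1.19 ± 0.10 with sulindac against adenoma (adjusted p = 0.000155, edgeR), the 1 gene of the list to do so. Ddit4, an inhibitor of mTORC1, rose by 0.72 ± 0.17 with sulindac against MIN, as did Rps6kb2, an S6 kinase, by 0.69 ± 0.17, while its relative Rps6kb1 fell by 0.38 ± 0.07. Mycn was at 1.80 to 2.64 CPM in MIN and at 0 counts in the other 6 samples, where 3 counts are worth 0.0838 to 0.10 CPM. Myc ranged from 150 to 175 CPM over the MIN samples, 142 to 167 CPM over the Adenoma samples and 138 to 183 CPM over the Sulindac samples, so its groups overlapped.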

How the data were processed

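The authors deposited raw counts per gene symbol, one table for the series. The submitters' processing notes name RSEM, Bowtie2 2.2.4 and mm9, and strandedness is not given in the sources used here. MIN replicate 1 has separate runs whose sum is also a column and was used as 1 sample. In 27 rows the symbol had become a date, and these were kept unnamed. From the counts, genes were filtered by filterByExpr, scaled by TMM and tested with edgeR 4.0.16 (glmQLFit and glmQLFTest, robust) in R 4.3.3, with a separate fit for each pair of groups, at a Benjamini-Hochberg FDR of 1% over all genes tested. A standard error is the log2 fold change divided by the root of F. DESeq2 1.42.0 was an alternative. The code was tested on simulated data.

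Values of a few single genes are not reported here, though counts over the members include them. The members and lists were chosen with earlier results of these data known. Genes named were members with set roles, near relatives, the lowest and highest members, the 5 largest changes each way past the FDR, and of the context lists the 2 largest each way. MIN and Adenoma samples with the same number shared deviations from their group means (correlations over genes of 0.125, 0.114 and 0.192), a pairing that comes from the data and not the labels, and the replicate block left the same 3 members called. Values after ± are SDs between samples or standard errors of the fit, and both include the spread between replicates. A limit given in counts covers counting error only.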

Additional observations from a re-analysis of the deposited data

How the results depend on the processing

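Each comparison was refitted under 16 alternatives, of which the scaling to the ribosomal protein genes, with and without the block, was chosen after seeing the data. In adenoma against MIN, 4 members were higher and 0 lower with library size alone. These are 5.13% and 0.0%, against 22.6% and 16.6% of all genes, and that scaling moved the median of all genes by 0.13. At an FDR of 5%, 5 members were higher (6.41% against 25.4% of all genes). Leaving out 1 sample gave 0 to 1 higher and 0 to 2 lower. Scaling to the ribosomal protein genes gave 1 lower, or 4 with the replicate block added. In sulindac against adenoma, DESeq2 and an FDR of 5% each gave 1 higher (1.28% against 13.7% and 15.7% of all genes). Leaving out 1 sample gave 0 to 9, the 9 (11.5% against 10.7%) without Adenoma replicate 3. In sulindac against MIN, DESeq2 gave 31 higher (39.7% of members against 25.3% of all genes) and the fit of all 9 samples 3 (3.85% against 21.7%). An FDR of 5% gave 38 (48.7% against 29.5%), and leaving out 1 sample gave 3 to 32. Scaling to the ribosomal protein genes gave 2 higher and, by its construction, a median of 0.00, and with the replicate block 3 higher, 4 lower and a median of 0.00. Causes of the other moves were not tested.

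With the replicate block alone, 1 member was higher and 2 lower in adenoma against MIN. The counts were 0 and 0 in sulindac against adenoma and 15 and 2 in sulindac against MIN. Of all genes, 18.4% and 19.9%, 6.73% and 8.19%, and 24.2% and 28.0% were called, in the same order. In both comparisons with Sulindac, 2 of the 3 same-numbered pairs correlated over all genes and the other did not (0.26, 0.213 and -0.077 with Adenoma, -0.031, 0.404 and 0.258 with MIN), so the numbers were not taken as pairs. The members' share of counts in Sulindac was 11.8% with the 10 most abundant other genes left out of the total, against 10.9%. It also rose in the other groups, to 8.85%, 9.49% and 10.1% in the MIN samples and 11.3%, 11.0% and 14.8% in the Adenoma samples. Depth was no limit for any member, and 3 samples a group and pseudogene copies limit the precision.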

Other observations

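The 77 mitochondrial ribosomal protein genes moved apart from the cytosolic ones. In adenoma against MIN, 3 were upregulated and 9 downregulated, or 3.90% and 11.7%, with a median log2 fold change of -0.21. In sulindac against MIN, 3 were upregulated and 20 downregulated, or 3.90% and 26.0%, again with a median of -0.21. The shares of all genes called were 18.5% and 20.1% in the first comparison and 23.0% and 26.8% in the second. None passed between sulindac-treated and untreated adenoma in edgeR, against 8.32% and 9.1% of all genes. At an unadjusted p under 0.05, 3 of the 77 were higher and 6 lower, against 2685 and 3108 of the 12962 genes tested. Adenoma replicate 3 stood apart here too, with a median log2 ratio to the MIN mean of -0.01, against -0.31 and -0.32 in the other Adenoma samples.

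Of the 13 RNA polymerase I genes tested, 1 was upregulated and 1 downregulated in adenoma against MIN, and 4 and 6 in sulindac against MIN. These are 7.69% each way against 18.5% and 20.1% of all genes, and 30.8% and 46.2% against 23.0% and 26.8%. Taf1b and Taf1c, which belong to the same promoter selectivity factor, went opposite ways in adenoma, at 0.77 ± 0.14 and -0.55 ± 0.14 on the log2 scale. Polr1b, a core subunit, and Ubtf, an activator of ribosomal DNA, fell by 0.69 ± 0.13 and 0.59 ± 0.10 with sulindac against MIN, while Polr1d, a subunit shared with RNA polymerase III, rose by 0.50 ± 0.09.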
